A study of Mus musculus with 6 samples.

Results

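The genes described here mark the steps from an oligodendrocyte precursor to a differentiating oligodendrocyte: Pdgfra, Cspg4, Olig1, Olig2, Sox10, Nkx2-2, Gpr17 and Enpp6. They were chosen by name, and every probe that the array's annotation assigned to one of them was taken, which gave 11 probes for these 8 genes, out of 45281 probes and 19057 named genes on the array. Of the 11 probes, 9 were tested and each of the 8 genes had at least 1 of these. To be tested, a probe had to reach a detection p-value below 0.05 in each of the 3 mice of KA-SE or of saline, and the values of the other 2 probes are given below.

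RNA came from the micro-dissected right dentate gyrus (DG) of male C57/Black6J mice of 6 to 8 weeks, taken 72 h after intraperitoneal injections. Granule cells are the main neurons of this hippocampal region, where new neurons also form in adults. In the KA-SE group (n = 3), kainic acid, an agonist of glutamate receptors, was injected repeatedly at a low dose until status epilepticus developed, and by the study's methods only mice with long class IV-V seizures were kept. Controls (n = 3) received saline, and each mouse had its own array.

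Oligodendrocyte precursors are dividing glial cells spread through the adult brain, hippocampus included, that can produce myelinating oligodendrocytes throughout life. They carry the growth factor receptor PDGFRA and the proteoglycan NG2, and both are lost when a cell commits to differentiate. OLIG1, OLIG2 and SOX10 are transcription factors of the whole lineage, whereas GPR17 and then ENPP6 mark short steps between the precursor and the myelinating cell.

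Detected probes made up 48.1% to 50.3% of the array, median raw intensities lay between 47.8 and 63.0, and the arrays correlated at a Pearson r of 0.987 to 0.993 across tested probes. The neuronal genes Syt1 and Rbfox3 and the granule cell gene Prox1 were detected in both groups. The choroid plexus gene Ttr, a marker of tissue next to the DG, had log2 signals of 13.28, 13.64 and 13.43 in KA-SE, against 14.85, 7.82 and 13.32 in saline, so that saline replicate 2 held far less of it than any other array. With 3 arrays per group, an exact permutation test of a single probe cannot give a p below 0.1.

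Over all 21226 tested probes, 49 (0.231%) passed an adjusted p of 0.05 in limma, and none of the 9 tested probes of the lineage genes did. At an unadjusted p under 0.05, where 8.13% of all tested probes lay, there were 4 of these 9 (2 to 4 in the alternative settings given below). For the same 4 probes, of Gpr17, Nkx2-2, Enpp6 and Olig2, all KA-SE arrays lay above all saline arrays, as they did for 7.33% of all tested probes. In the opposite direction the groups did not overlap for 0 of the 9, against 5.75% of all tested probes. The median log2 change was 0.20 over the 9 probes and -0.01 over all tested probes. The median of 0.20 is the value of the dimmer Nkx2-2 probe, which entered the test only through its detection in KA-SE. Since the genes were chosen with results of these data known, these shares describe them and carry no test of their own. In whole tissue, a change in the number of cells cannot be told apart from a change in RNA per cell.

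**Figure D1:**
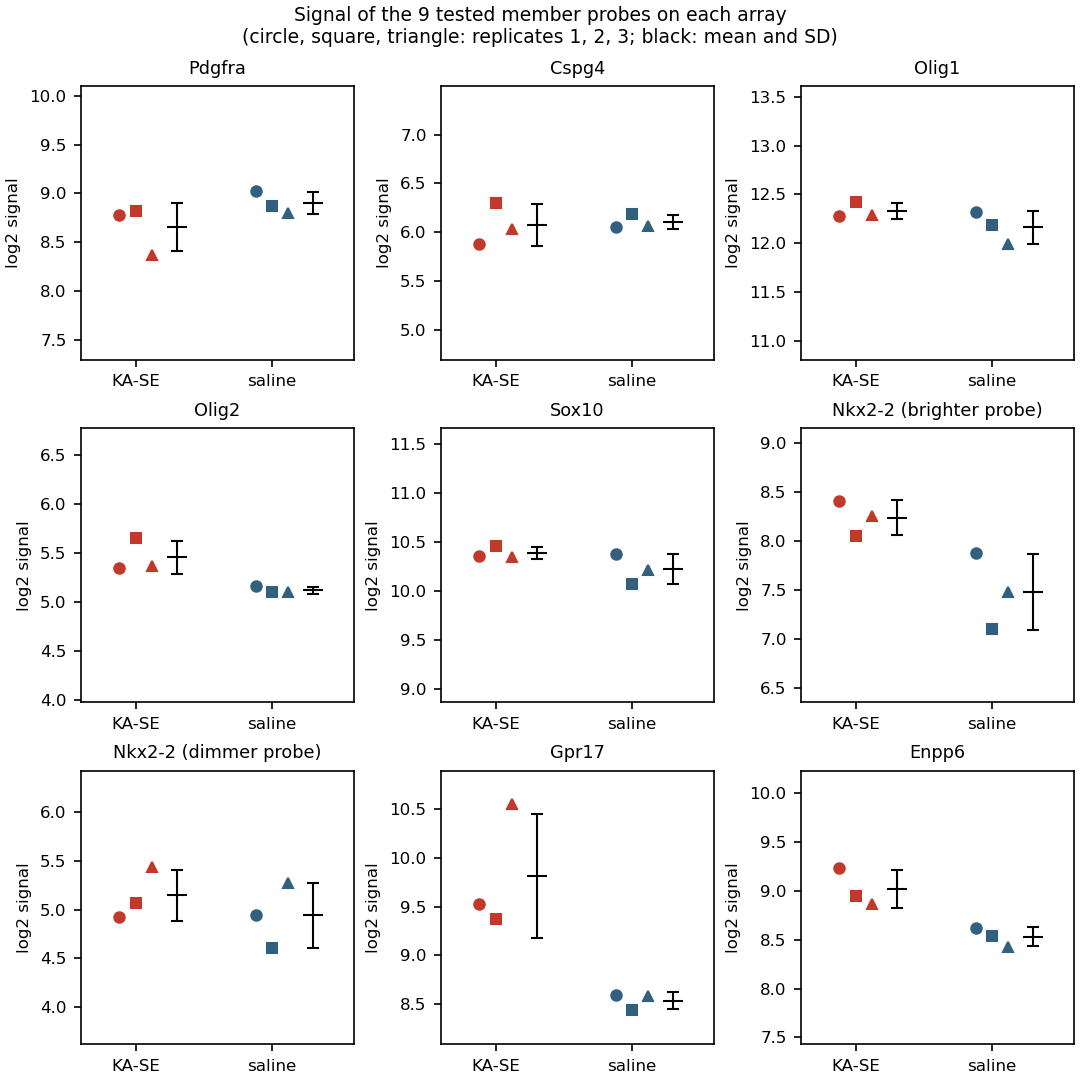
Log2 signal (y axis, spanning the same number of log2 units in every panel) of the 9 tested probes on the 3 KA-SE and the 3 saline arrays, with the group mean and SD in black. The KA-SE points of Gpr17, Nkx2-2 (brighter probe), Enpp6 and Olig2 all lie above the saline points, and the groups overlap in the other panels.

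Pdgfra encodes the receptor for platelet-derived growth factor that drives division of the precursors. Its tested probe had log2 signals of 8.78, 8.82 and 8.37 on KA-SE arrays 1 to 3, against 9.02, 8.88 and 8.80 on saline arrays 1 to 3. The groups overlapped, and KA-SE replicate 3 was the lowest of the 6. Means were 8.66 ± 0.249 in KA-SE and 8.90 ± 0.114 in saline (SD, n = 3 each), with a log2 change of -0.24 ± 0.142 (SE; 95% confidence interval -0.56 to 0.07; limma adjusted p = 0.758). Without KA-SE replicate 3 the log2 change was -0.10, and with median scaling -0.36. The other probe of Pdgfra, designed on a clone sequence, was near background, detected in 0 of 3 KA-SE mice and in 2 of 3 saline mice, with log2 signals of 4.69, 4.75 and 4.70 in KA-SE, against 4.81, 4.87 and 4.60 in saline.

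Cspg4 encodes NG2, the surface proteoglycan by which precursors are commonly stained and which pericytes also carry. Its log2 signal was 5.88, 6.30 and 6.03 in KA-SE, against 6.05, 6.19 and 6.07 in saline. The saline values lay within the span of the KA-SE values. The log2 change was -0.03 ± 0.131 (SE, 95% confidence interval -0.32 to 0.26, limma adjusted p = 0.986), and it was 0.01 with array weights, 0.07 without KA-SE replicate 1 and 0.01 without saline replicate 2, so that no direction can be given.

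Cells other than precursors also express Pdgfra and Cspg4, and markers of such cells were compared on the same arrays. For pericytes and smooth muscle, Cspg4 included, 0 of 13 tested genes passed and their median log2 change was -0.06, with a summed linear signal of 1681 to 2085 in KA-SE and 1698 to 2280 in saline. Of the 13, 5 had a positive change, such as Rgs5 (0.25), and 8 a negative one, among them the brightest, Vtn and Acta2 (both -0.14). Fibroblast and meningeal genes, among which Pdgfra is counted, had a median of -0.23 with 0 of 11 passing, or -0.08 over the 10 genes other than Pdgfra, of which 5 were positive, and a summed signal of 5221 to 6710 in KA-SE and 5325 to 8864 in saline. The brightest of these were Crym (-0.25), Igf2 (-0.34) and Dcn (0.22), and Lum (0.26) and Col1a1 (0.30) were also positive. The largest change of the list was a negative one, of Ogn (-0.64, limma adjusted p = 0.179). All KA-SE arrays lay below all saline arrays for Ogn and Aldh1a2 (-0.23), 2 of the 11, and above them for 0. Over all tested probes these shares were 5.75% and 7.33%. Choroid plexus and ependymal genes had a median of 0.03, with 0 of 11 passing, and a summed signal of 11408 to 14688 in KA-SE and 1344 to 32987 in saline. Their part in the values of Pdgfra and Cspg4 was not tested.

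Olig1 and Olig2 encode related basic helix-loop-helix factors, of which OLIG2 specifies the lineage and OLIG1 acts in maturation and myelin repair. Olig1 was the brightest of the genes, above 97.7% of tested probes or level with them, with log2 signals of 12.28, 12.43 and 12.29 in KA-SE, against 12.32, 12.19 and 11.99 in saline. The groups overlapped through saline replicate 1 (log2 change 0.17 ± 0.123, SE, limma adjusted p = 0.839). The change was 0.08 without saline replicate 3 and 0.05 with median scaling.

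Olig2 was read by a dim probe, with raw intensities of 65.7, 69.8 and 67.5 in KA-SE, against 62.9, 54.1 and 74.8 in saline, where raw values still hold the brightness of the whole array. After normalization the log2 signals were 5.35, 5.65 and 5.37 in KA-SE, against 5.16, 5.10 and 5.10 in saline. All KA-SE arrays thus lay above all saline arrays, with a gap of 0.19 between the nearest values. The change of 1.26-fold (log2 change 0.34 ± 0.120, SE, 95% confidence interval 0.07 to 0.60) did not pass (limma adjusted p = 0.442), and it was 0.18 on the log2 scale with a normexp offset of 50.

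Sox10 encodes the factor that switches on myelin genes together with MYRF. Its log2 signal was 10.35, 10.45 and 10.35 in KA-SE, against 10.38, 10.07 and 10.21 in saline. As for Olig1, saline replicate 1 reached into the KA-SE values (log2 change 0.17 ± 0.119, SE, limma adjusted p = 0.833). For Sox10 it was 0.09 without saline replicate 2 and 0.04 with median scaling.

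Nkx2-2 encodes a homeodomain factor that rises when precursors begin to differentiate. Its brighter probe had log2 signals of 8.41, 8.05 and 8.26 in KA-SE, against 7.87, 7.10 and 7.48 in saline. The KA-SE arrays spread less than the saline arrays did (SD 0.181 in KA-SE and 0.389 in saline), and no saline array reached the lowest KA-SE array. KA-SE was 1.69-fold higher (log2 change 0.76 ± 0.185, SE, 95% confidence interval 0.35 to 1.17), without passing (limma adjusted p = 0.192). The log2 change was 0.56 without saline replicate 2, the lowest array, and 0.95 without saline replicate 1. A further probe, designed on another transcript of the gene, was close to background and missed detection on 1 saline array. It had log2 signals of 4.93, 5.07 and 5.43 in KA-SE, against 4.94, 4.61 and 5.27 in saline. Those groups overlapped (log2 change 0.20 ± 0.183, SE, limma adjusted p = 0.901), and the difference between the probes was not tested.

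Enpp6 encodes a choline-specific phosphodiesterase of newly forming oligodendrocytes. Its tested probe had log2 signals of 9.23, 8.95 and 8.87 in KA-SE, against 8.62, 8.54 and 8.43 in saline. The groups were 0.25 apart at their nearest values, and KA-SE was 1.40-fold higher (log2 change 0.49 ± 0.129, SE, 95% confidence interval 0.20 to 0.77, limma adjusted p = 0.241). The other probe of this gene, of the same transcript, was detected on 0 of the 6 arrays, with log2 signals of 4.32 to 4.45 in KA-SE and 4.34 to 4.43 in saline.

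Gpr17 encodes an orphan G protein-coupled receptor of committed precursors that is switched off before they myelinate. Its probe had log2 signals of 9.53, 9.37 and 10.55 in KA-SE, against 8.59, 8.44 and 8.58 in saline. The saline arrays lay close together, and all KA-SE arrays lay at least 0.78 above the highest of them. KA-SE replicate 3 stood 2.01 above the saline mean, while replicates 1 and 2 stood 0.99 and 0.83 above it. The means were 9.81 ± 0.639 in KA-SE and 8.54 ± 0.0871 in saline (SD, n = 3 each), 2.42-fold higher in KA-SE (log2 change 1.28 ± 0.253, SE, 95% confidence interval 0.72 to 1.84).

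This was the widest difference among the genes, and it did not pass over all probes (limma adjusted p = 0.0971). Had the arrays been scaled to a common median rather than quantile normalized, it would have passed (limma adjusted p = 0.00550). The log2 change was then 1.14 ± 0.221 (SE), no larger than in the main fit, and the median of all probes was -0.10. Over all settings the limma adjusted p of Gpr17 ranged from 0.00550 to 0.455. Without KA-SE replicate 3 the log2 change was 0.91 (limma adjusted p = 0.0686).

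**Figure D2:**
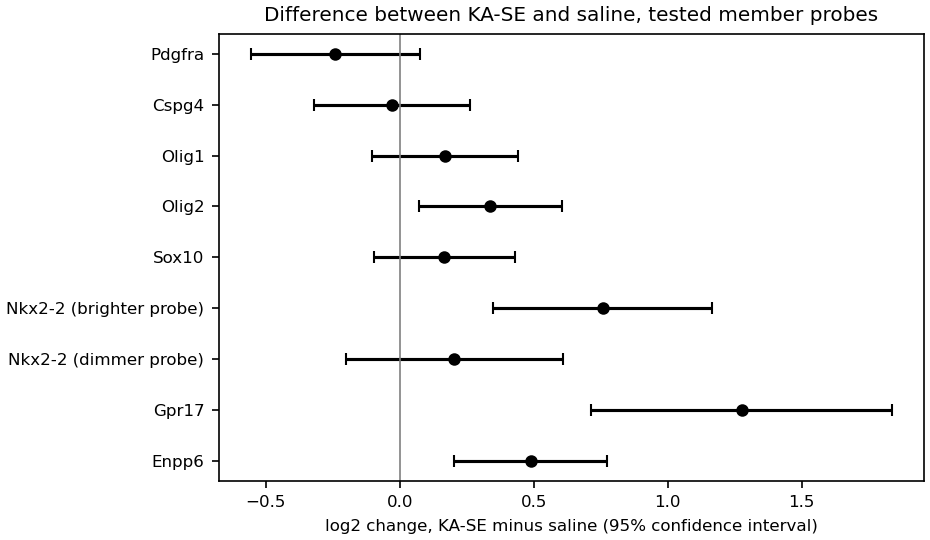
Log2 change of KA-SE minus saline (x axis) with its 95% confidence interval from limma for each of the 9 tested probes (n = 3 arrays per group). The intervals of Olig2, Nkx2-2 (brighter probe), Gpr17 and Enpp6 lie above 0, and the others span 0.

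By RefSeq's annotation of GRCm38.p6, Gpr17 lies within the span of Lims2, which encodes an adaptor protein of integrin-linked kinase. The 3 tested probes of Lims2 had log2 changes of 0.97 and 1.03, both with a limma adjusted p of 0.0251, and 0.83 for the brightest (limma adjusted p = 0.112). That brightest probe had log2 signals of 8.98, 9.12 and 9.68 in KA-SE, against 8.42, 8.49 and 8.39 in saline, so that KA-SE replicate 3 was the highest array for both genes. How far the probes of these overlapping genes read each other's transcripts was not tested.

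KA-SE replicate 3 was also the highest array for microglial genes. The microglia and macrophage list had a median of 0.45, 0.52 and 1.05 above the saline mean on KA-SE arrays 1 to 3, against 0.02, -0.01 and 0.04 on saline arrays 1 to 3. Of its 16 tested genes, 16 had a positive change. For 14 of them all KA-SE arrays lay above all saline arrays, as for 7.33% of all tested probes. From this list 3 genes passed, where 35 of all 11222 genes (0.312%) did. They were the Fc receptor gene Fcgr3 (log2 change 1.29), the lysozyme gene Lyz2 (1.08) and the orphan receptor gene Gpr34 (0.85). The complement genes C1qb (0.87) and C1qc (0.92), the brightest of the list, did not pass. The list's summed linear signal was 6426 to 9479 in KA-SE and 4517 to 4676 in saline. By signal over the 6 arrays, the genes most like Gpr17 were the microglial receptor genes Cx3cr1 and Fcrls, each with a Pearson r of 0.99, out of 10875 genes compared, of which 81 were above an r of 0.95. All these values share the same arrays and the difference between groups, and the part of microglial RNA in the value of Gpr17 was not tested.

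**Figure D3:**
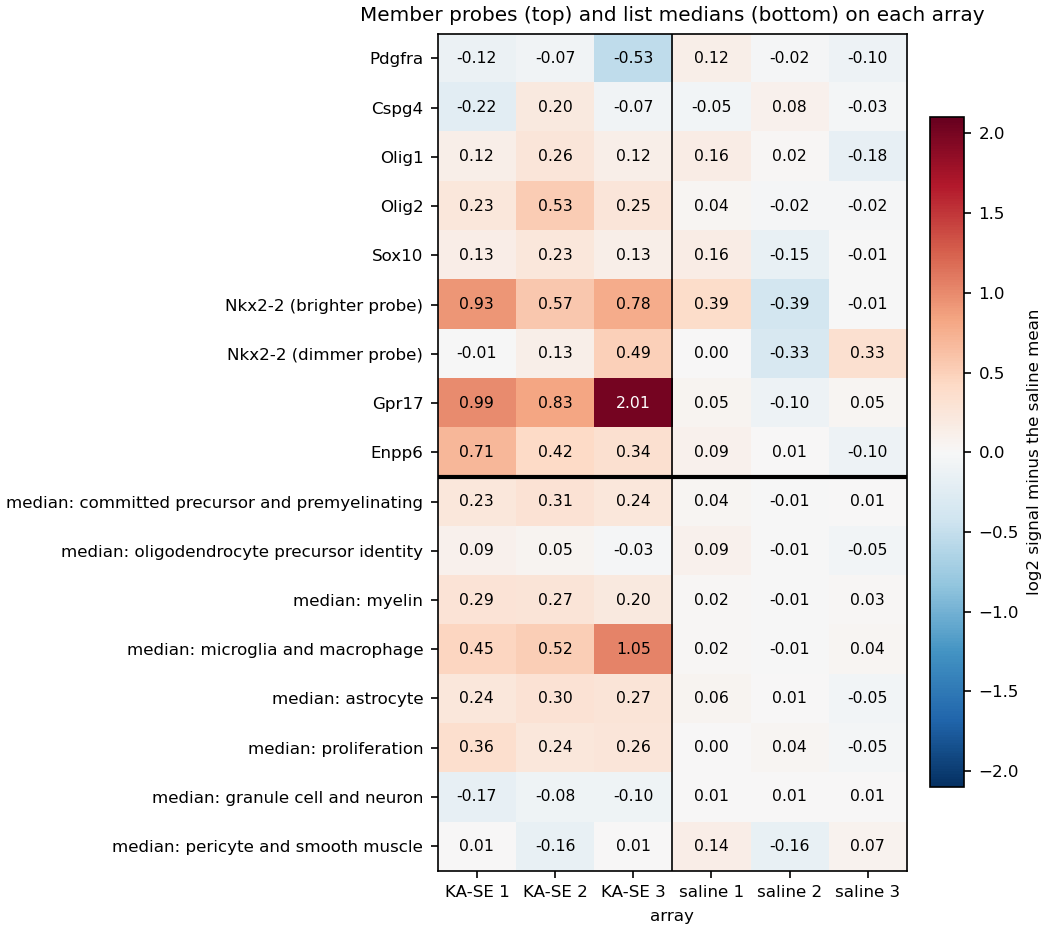
Difference of each array from the saline mean in log2 signal (color and printed value) for the 9 tested probes above the line and for the medians of 8 gene lists below it, with KA-SE arrays in the left columns and saline arrays in the right columns. KA-SE replicate 3 is the highest array for Gpr17 (2.01) and for the microglia and macrophage list (1.05), and the lowest for Pdgfra (-0.53).

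The dimmer probe of Nkx2-2 was likewise highest on KA-SE replicate 3, at 0.49 above its saline mean, with 0.13 and -0.01 on replicates 2 and 1. Enpp6 and the brighter probe of Nkx2-2 were highest on KA-SE replicate 1, 0.71 and 0.93 above their saline means, and Olig2 was highest on KA-SE replicate 2, at 0.53. Patterns most like those of the others, again by Pearson r over the 6 arrays, were Bach1 and Ptpn22 for Nkx2-2, Clk4 and Scg3 for Enpp6, and Ugt1a10 and Pbld2 for Olig2. For the remaining genes they were Pramel12 and Syt16 for Pdgfra, Sae1 and Pappa for Cspg4, Stxbp4 and Emc7 for Olig1, and Ulk4 and Slc9a3r1 for Sox10. These r ranged from 0.98 to 1.00, none of these genes passed the test between groups, and with 6 arrays 16 to 46 genes exceeded an r of 0.95 for each of these 7 genes.

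Upstream sequence is shown for the 3 genes whose KA-SE and saline arrays did not overlap and for which a promoter was at hand, the set having been picked after the values were seen. Of the 8 genes, 5 matched the RefSeq promoter table of GRCm38.p6, namely Pdgfra, Cspg4, Olig2, Nkx2-2 and Enpp6. Each run covers the 250 bases before 1 annotated start site, which need not be that of the transcript a probe reads. Capitals mark the E-box CANNTG, the kind of site bound by OLIG factors, and the SOX core ACAAAG or ACAATG, searched on both strands. Olig2 is at chr16:91225300-91225549 on the plus strand, Nkx2-2 at chr2:147186403-147186652 on the minus strand and Enpp6 at chr8:46986637-46986886 on the plus strand.
Olig2: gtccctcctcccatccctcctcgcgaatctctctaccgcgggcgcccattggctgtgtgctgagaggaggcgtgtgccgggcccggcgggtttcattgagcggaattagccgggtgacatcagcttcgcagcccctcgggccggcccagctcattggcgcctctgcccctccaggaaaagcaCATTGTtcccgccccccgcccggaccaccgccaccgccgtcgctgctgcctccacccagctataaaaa
Nkx2-2: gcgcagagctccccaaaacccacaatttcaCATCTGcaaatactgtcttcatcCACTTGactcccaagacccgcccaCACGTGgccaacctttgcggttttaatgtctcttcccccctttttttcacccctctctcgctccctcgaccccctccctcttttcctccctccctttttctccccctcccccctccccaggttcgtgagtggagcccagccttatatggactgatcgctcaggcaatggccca
Enpp6: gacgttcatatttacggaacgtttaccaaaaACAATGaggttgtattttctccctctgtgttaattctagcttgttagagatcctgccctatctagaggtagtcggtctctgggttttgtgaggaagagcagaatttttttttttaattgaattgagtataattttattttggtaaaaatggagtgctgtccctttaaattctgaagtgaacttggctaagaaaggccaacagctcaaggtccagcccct

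The Nkx2-2 window held 3 E-boxes and no SOX core, and the windows of Olig2 and Enpp6 each held 1 SOX core and no E-box. Of the precursor genes, Pdgfra had 1 E-box and Cspg4 had a match to neither. Among all 32851 windows of the table, 66.2% held at least 1 E-box and 25.2% at least 1 SOX core, so that these matches describe the letters only.

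Neighboring steps of the lineage were then compared by gene lists, each gene at its brightest tested probe. For the list of precursor identity, 0 of 19 tested genes passed, and the median log2 change was 0.07, against -0.0011 over all 11222 genes. Besides Pdgfra and Cspg4 it held Scrg1 (0.65), the sialidase gene Neu4 (0.39), the SOX factor gene Sox8 (0.36) and the xylosyltransferase gene Xylt1 (-0.27), with limma adjusted p-values from 0.313 to 0.705. Other tested probes gave 0.22 and 0.58 for Neu4 and 0.02 for Sox8.

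The list of committed precursors and premyelinating cells, which holds Gpr17, Nkx2-2 and Enpp6, had a median of 0.28, or 0.22 over its 14 other tested genes, of which 9 had a positive change. Of its 17 tested genes 1 passed, where 35 of all 11222 genes (0.312%) did. This was Bmp4, a bone morphogenetic protein of committed precursors. It had log2 signals of 7.83, 7.36 and 7.99 in KA-SE, against 6.72, 6.62 and 6.73 in saline. Its groups were far apart next to their spread, and the log2 change was 1.04 ± 0.158 (SE, limma adjusted p = 0.0381). The 14 other genes include Lims2, within whose span Gpr17 lies. Its brightest probe did not pass (0.83, limma adjusted p = 0.112), whereas its other 2 tested probes did. The count of 1 thus depends on the probe taken. The calcium release channel gene Itpr2 (0.44) and Bcas1 (0.33), a gene of newly myelinating cells, did not pass.

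The list of lineage transcription factors, 4 of whose 12 tested genes are Olig1, Olig2, Sox10 and Nkx2-2, had a median of 0.17 with 0 passing. Among its other genes were Sox9 (log2 change 0.39), Sox8 (0.36), the WNT effector gene Tcf7l2 (0.28) and the homeodomain gene Nkx6-2 (0.16), with limma adjusted p-values from 0.408 to 0.842. Sox9 is also counted among the astrocyte genes given further below. Other tested probes gave 0.36 for Sox9, 0.02 for Sox8, -0.01 and 0.26 for Tcf7l2 and 0.33 for Nkx6-2. The myelin list had a median of 0.20 with 15 of 18 tested genes positive and 0 passing. It held the actin-severing protein gene Gsn (0.49), the tight junction gene Cldn11 (0.45), the transferrin gene Trf (0.38) and the myelin proteolipid gene Mal (0.35). None of these 4 myelin genes passed (limma adjusted p from 0.218 to 0.364), although they had the smallest p-values of the list. Other tested probes gave 0.21 for Gsn and 0.38 for Mal. Smaller changes were seen for the myelin genes Mag (0.11), Mbp (0.02), Cnp (0.02) and Opalin (-0.02). Mbp lay at the top of the scale, at 14.71 to 14.85 in KA-SE and 14.67 to 14.84 in saline. There quantile normalization gives all arrays the same few values, so that 0.02 cannot show a lack of change. For 8 of the 18 myelin genes, Mag among them, all KA-SE arrays lay above all saline arrays, and for 0 below. Over all tested probes these shares were 7.33% and 5.75%.

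**Figure D4:**
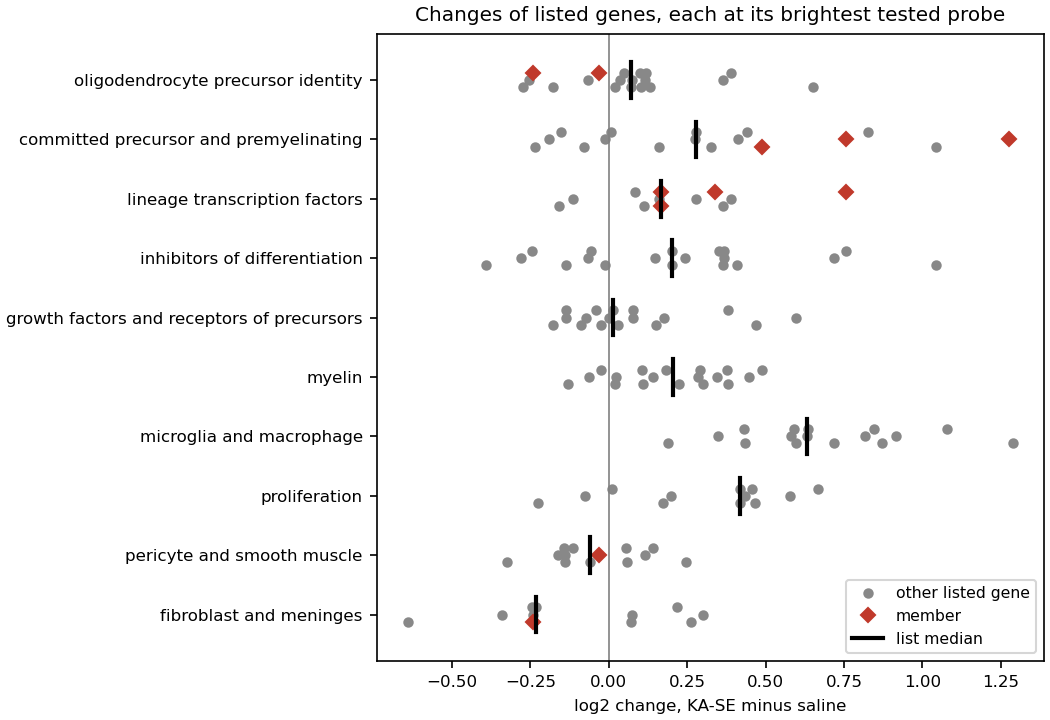
Log2 change of KA-SE minus saline (x axis) of each gene of 10 lists at its brightest tested probe, with red diamonds for the 8 lineage genes described here, gray points for the other genes and a black line for the list median. The medians are 0.07 for precursor identity, 0.28 for committed precursors, 0.20 for myelin and 0.63 for microglia and macrophages.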

How the data were processed

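The authors isolated total RNA with TRIzol, labeled cRNA and hybridized it to MouseWG-6 beadchips (Illumina), with an array for each mouse. Raw probe intensities on a linear scale and a detection p-value for each were deposited. A processed table, called a score here, was made by the authors by background correction, transformation and normalization. Its log base is unknown, its columns share a median of 18.1, and it was used as an alternative.

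Arrays were grouped by sample title. The names of 2 raw KA-SE columns carry an additional digit, and their trailing digit was read as the replicate. Each raw column tracked the processed column of its own sample best. Slides and scan times were not used here.

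Intensities were corrected by normexp with negative controls inferred from detection p-values (offset 16), quantile normalized and log2 transformed, as in neqc (limma 3.58.1, R 4.3.3). Of 45281 probes, limma's moderated two-sided test was run on the 21226 that had a detection p under 0.05 in every mouse of KA-SE or of saline (prior degrees of freedom 6.40), and p-values were adjusted over all 21226 by the Benjamini-Hochberg method. The fit was tested on simulated data. The SEs, confidence intervals and p-values given with a log2 change are those of this moderated fit. In it, the variance between the 3 mice per group is drawn toward a value shared by all tested probes. For a probe with a wide spread of its own, such as that of Gpr17, the SE and interval are therefore narrower than its own mice alone would give.

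Probes were named from the platform annotation, updated by Entrez identifier through RefSeq (GRCm38.p6), and 34885 had 1 gene, 18 several and 10378 none listed. The genes and 13 lists (249 entries, 230 matched) were chosen with earlier results of these data known. Named were all probes of the 8 genes, up to 4 further genes per lineage list by smallest adjusted p, up to 2 of other lists by highest signal, and the 2 genes most correlated with each of the 8. Prox1, Rgs5, Dcn, Lum, Col1a1, Ogn, Aldh1a2, Mbp, Cnp, Mag, Opalin, Pdgfa, Pdgfb and Pdgfc were named after their values were seen, some outside that rule. The same holds for the microglial and cell cycle genes given by their test. Alternatives covered background, normalization, filter, prior, weights, a replicate block and omission of each array.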

Additional observations from a re-analysis of the deposited data

How the results depend on the processing

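None of the 9 tested probes passed in the main fit and all refits reuse the same arrays, so that the following count is no test of stability. Of 134 refits of single probes (9 probes, up to 15 alternatives each), 130 kept direction and side of the threshold. The exceptions were Gpr17 with median scaling, which passed (log2 change 1.14), and Cspg4. The log2 change of Cspg4 was 0.0124 with array weights, 0.0650 without KA-SE replicate 1 and 0.0134 without saline replicate 2, and ranged from -0.146 to 0.0650 over omission of each array. With median scaling 1 of the 9 tested probes passed, and in the other alternatives 0 did. The count at an unadjusted p under 0.05 in limma was 4 in the main fit and 2 with median scaling. It was 3 with a normexp offset of 50, with no background correction and without KA-SE replicate 2, and 4 in the other alternatives. Leaving aside the authors' processed values, whose log base is unknown, the log2 change was 0.91 to 1.50 for Gpr17, 0.56 to 0.95 for Nkx2-2 (brighter probe), 0.36 to 0.56 for Enpp6, 0.18 to 0.40 for Olig2, 0.05 to 0.25 for Olig1, 0.04 to 0.25 for Sox10 and -0.36 to -0.10 for Pdgfra. On the scale of those processed values the differences were 0.688 for Gpr17, 0.344 for Nkx2-2 and 0.266 for Enpp6.

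Of all tested probes, 49 passed, and this count was 78 with median scaling (63 higher and 15 lower, against 45 and 4), 9 with the authors' processed values, 0 with no filter on dim probes (3000 at an unadjusted p under 0.05 in limma), 81 with a trended robust prior, 89 with array weights and 32 with the replicate block. Omission of a single array gave 4 to 85, namely 85 for KA-SE replicate 1, 5 for KA-SE replicate 2, for saline replicate 1 and for saline replicate 2, and 4 for KA-SE replicate 3 and for saline replicate 3. The cause of these shifts was not tested. With the replicate block, the adjusted p of Gpr17 was 0.0655 and that of Nkx2-2 was 0.0699. Same-numbered arrays deviated together only in part (correlations 0.02, 0.18 and 0.24 for replicates 1, 2 and 3). The highest correlation with a saline array of another number was 0.05, 0.02 and -0.03. The sample titles do not call the numbers pairs, and they were not taken as pairs in the main test. A shared effect of the replicate number was not tested further. With a detection p under 0.01 the dimmer probe of Nkx2-2 was not tested. The slide as a block was not run, since no slide is named. Dim probes such as that of Olig2 lie near background, which limits the size of any change they can show.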

Other observations

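Genes that hold precursors back were compared beside the lineage. Of 19 tested inhibitors of differentiation, 1 passed, Bmp4, where 0.312% of all genes did, and the median log2 change was 0.20. The hyaluronan receptor gene Cd44 (0.76) and the toll-like receptor gene Tlr2 (0.72), both also genes of reactive glia and microglia, had limma adjusted p-values of 0.0918 and 0.0950, and the BMP receptor gene Bmpr1b (0.37) one of 0.379. Other tested probes of Cd44 gave -0.11 and 0.49. The 4 genes for ID proteins, targets of BMP signaling that block helix-loop-helix factors such as OLIG2, had log2 changes of 0.41 for Id1, 0.37 for Id2, 0.35 for Id3 and 0.37 for Id4, and the Notch target genes Hes1 and Hes5 had -0.25 and -0.39. None of these 6 passed, and they were named after their values were seen.

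Of 17 tested growth factor and receptor genes of precursors, 0 passed, and their median log2 change was 0.01. The list's genes for platelet-derived growth factors had log2 changes of -0.02 for Pdgfa, -0.04 for Pdgfb and 0.08 for Pdgfc. Among the others were the microglial receptor gene P2ry12 (0.60), the neurotrophin receptor gene Ntrk2 (0.47), the neuregulin gene Nrg1 (0.38) and the receptor gene Igf1r (-0.18). Other tested probes gave -0.24 and 0.35 for Ntrk2 and -0.06 and 0.01 for Igf1r. The proliferation list had a median of 0.42 with 0 of 12 tested genes passing. Its genes with the smallest p-values were Prc1 (0.67), Cdt1 (0.47) and Uhrf1 (0.58), and its brightest, Mcm6 and Mcm5, had -0.23 and 0.01. Astrocyte genes had a median of 0.34, and all 14 tested had a positive change. Of these Gfap (1.89) passed, and Slc1a3 (0.19) and Aldoc (0.14) did not. Granule cell and neuron genes had a median of -0.14, with 0 of 8 passing.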
